A study of Homo sapiens with 2 samples.

Results

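Among the places where CUT&Tag found signal in PLC8024 cells, a human liver cancer line, a small class lay in the 3' untranslated regions (3' UTRs) of genes. In CUT&Tag an antibody on chromatin brings in a tethered transposase, which cuts and tags the DNA close by for amplification and sequencing. The drug group was 1 library of PLC8024 cells treated for 6 h with 10 nM of a drug, and the control group was 1 library of PLC8024 cells of the same culture conditions labelled control. Which drug and which antibody were used is not stated in the labels, and the IgG and Pol II groups of the design were not analysed here. Peaks were taken as 3' UTR peaks when both annotation columns of the deposited lists placed them there, which gave 407 of the 29283 drug peaks and 1240 of the 49854 control peaks. With 1 library per group there was no spread between replicates, no test was possible, and every difference is a description of this pair of libraries in a single cell line.

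A 3' UTR is the stretch of a messenger RNA between the stop codon and the poly(A) tail. In the RNA it carries binding sites for microRNAs and for RNA-binding proteins that set stability, translation and location, and the poly(A) signal near its end directs cleavage of the transcript. In chromatin the same DNA is the end of the gene body, where RNA polymerase slows and terminates, and it can also hold enhancers or the start site of a neighbouring gene.

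That last arrangement was seen directly in a few peaks, whose start sites are printed here because they show where a 3' UTR peak is also a promoter. RefSeq promoter windows on GRCh38.p14, reaching 250 bases before to 50 bases after an annotated start, were touched by 4 drug and 9 control 3' UTR peaks, and 3 drug and 8 control peaks held the start site itself. Each line gives 30 bases 5' to 3' on the strand of the gene that starts there, with capitals from the start site on.
LOC107987134 start within the HMCN2 3' UTR peak, chr9:130433760-130433789, minus strand: acgctccgcttgccaCAGCAGGTGGCGTGG
CTDSP1 start within the SLC11A1 3' UTR peak, chr2:218396336-218396365, plus strand: agtccctcctccagcCTCGTCGGGTCCCTC
CIDEB start within the NOP9 3' UTR peak, chr14:24307963-24307992, minus strand: gtccaggcttgactcATTCCCACCTTGTCC
USP3-AS1 start within the FBXL22 3' UTR peak, chr15:63600813-63600842, minus strand: cggcagccaacgtgcGGTTGGTGACGCGCG
The first 3 start sites lay under a 3' UTR peak of both lists. The HMCN2 peak scored 215 in drug and 679 in control, the SLC11A1 peak 123 in drug and 405 in control, and the NOP9 peak 82 in drug and 167 in control. The FBXL22 peak was a 3' UTR peak of the control list, where it scored 436 and was overlapped by a drug peak. GC content of the whole 300-base windows was 70% at LOC107987134, 72% at CTDSP1, 51% at CIDEB and 79% at USP3-AS1, beside a median of 58.7% over 34943 RefSeq promoters. The AP-1 motif, TGACTCA or TGAGTCA on either strand, occurred in the CIDEB window and in 4.96% of all promoters, and the copy at CIDEB spans the start site printed above. The E-box CACGTG occurred in the USP3-AS1 window and in 7.23% of all promoters. TATAAA on either strand was in the CTDSP1 window and in 11.6% of all promoters. CCAAT on either strand was in the CIDEB window and in 34.6% of all promoters. A motif match describes letters and not a bound site. None of 1562 RefSeq miRNA hairpins lay under a 3' UTR peak of either list.

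Peak numbers and sizes have to be read with the making of the lists in mind. The authors called peaks in each library separately, and the number of reads behind each list is unknown. Each peak carries a score, by the convention of the peak caller 10 times the −log10 of the q-value, which places a peak within its own list only. Among 13 liver marker genes, 5 had a drug promoter peak and 8 a control promoter peak, with SERPINA1, HNF4A, FOXA2, KRT8 and KRT18 in both lists. The background for all marker counts here is the share over all protein-coding genes, 35.2% in drug and 39.9% in control. The drug liver count was near that share and does not mark a cell type. ALB, AFP, APOA1, APOB and TTR had a promoter peak in neither list. Promoter peaks lay at 2 drug and 1 control of 10 blood markers, 1 drug and 1 control of 10 fibroblast and endothelial markers, and 2 drug and 4 control of 8 neuronal markers.

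The 3' UTR class made up a smaller share of the drug list than of the control list. It was 1.39% of drug peaks (95% interval 1.26 to 1.53) and 2.49% of control peaks (2.35 to 2.63), a difference of -1.10 percentage points (-1.29 to -0.904). These exact intervals, and all others given for shares, cover counting error only, and neighbouring peaks are not independent. The drug list held 32.8% as many 3' UTR peaks as the control list, while it held 58.7% as many peaks of all kinds. The ratio was 30.0% for coding exons, 41.0% for transcription end sites, 44.1% for non-coding transcripts, 49.2% for introns and 50.9% for 5' UTRs. It was 63.7% for intergenic peaks, 71.9% for peaks without annotation and 85.0% for promoters. When the control list was shortened to the 29283 strongest peaks, 571 of them were 3' UTR peaks, or 1.95% (1.79 to 2.11), so the drug share was lower at equal list length as well. At that length the drug list had 71.3% as many 3' UTR peaks as control, 61.3% as many 5' UTR peaks and 62.2% as many exon peaks. It had 74.1% as many transcription end peaks and 74.3% as many non-coding transcript peaks. Promoter peaks stood at 96.0%, intergenic peaks at 108%, intron peaks at 109% and peaks without annotation at 116%. A number of drug peaks well under that of control at equal list length was thus also seen for 5' UTRs, exons, transcription ends and non-coding transcripts. Whether depth of sequencing contributed was not tested, since neither list carries it.

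In the drug list, 292 of the 407 3' UTR peaks shared at least 1 bp with a control peak. That is 71.7% (67.1 to 76.1), next to 70.7% of drug peaks of every class, so the class as a whole was near the background. In the control list, 279 of the 1240 were overlapped by a drug peak under that rule. That is 22.5% (20.2 to 24.9), against 40.1% of control peaks of every class. The partner was itself a 3' UTR peak for 268 of the 292 drug peaks (91.8%) and for 259 of the 279 control peaks (92.8%). The 2 lists thus mostly placed shared sites in the same class, and the other partners lay chiefly in neighbouring exons or at the transcription end site.

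**Figure D1:**
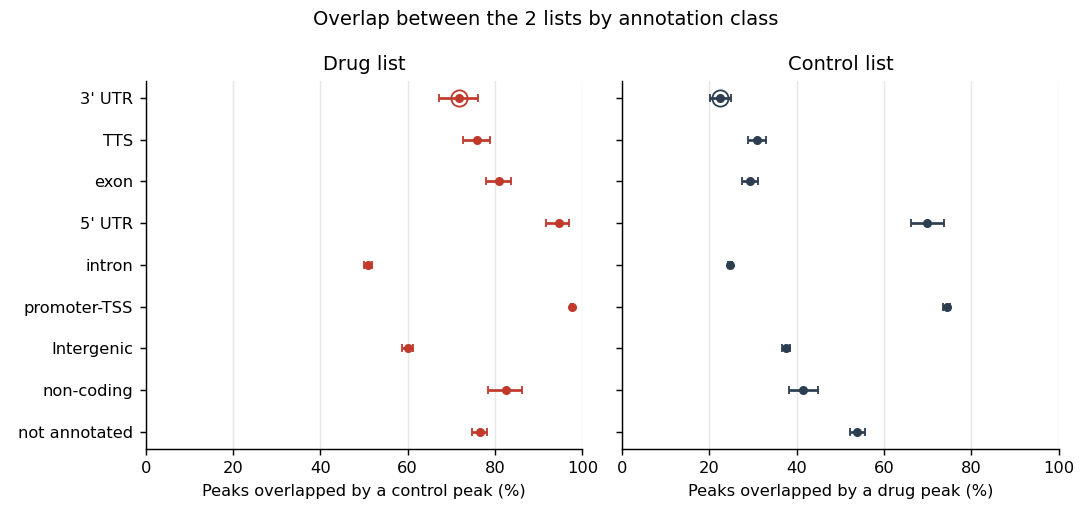
Share of peaks of each annotation class that overlap a peak of the other list, drug list left and control list right, in percent with exact 95% intervals for counting error. The 3' UTR class, ringed, lies at 71.7% in the drug list and at 22.5% in the control list, where it is beside introns and far below promoters.

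The other classes place these shares. In the drug list, 3' UTR peaks were overlapped more often than intron peaks, by 20.8 percentage points (16.2 to 25.1), and less often than promoter peaks, by a difference of -25.9 points (-30.4 to -21.7). Against transcription end peaks the drug difference was -4.06 points, and its interval, -9.48 to 1.18, includes 0. In the control list, 3' UTR peaks differed from promoter peaks by -51.9 points (-54.3 to -49.3), from transcription end peaks by -8.37 points (-11.5 to -5.19) and from exon peaks by -6.85 points (-9.75 to -3.86). Against control intron peaks the difference was -2.24 points, with an interval from -4.56 to 0.234. It was -4.23 points among peaks scoring 50 or more (-7.08 to -1.11), -4.26 points at equal list length (-8.38 to -0.0415) and -3.08 points where at least 50% of both peaks had to be shared (-4.98 to -0.971). Weighted over bins of control score it was -0.452 points (-2.30 to 1.40). Most of the control gap to promoters went with peak strength. Weighted over 10 equal bins of control score, the difference from promoter peaks was -6.78 points (-8.94 to -4.62).

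The strongest 3' UTR peaks were shared between the lists and the weakest mostly were not. With control scores divided into 10 bins of equal size, in the top 2 all 50 and all 23 control 3' UTR peaks were overlapped by a drug peak. In the bins below, 67.5% of 83, 42.3% of 130 and 27.7% of 166 were overlapped, and in the weakest bin 3 of 156, or 1.92% (0.398 to 5.52). Control intron peaks followed nearly the same course, with 71.5%, 42.1% and 22.6% in those middle bins. In the drug list most 3' UTR peaks were overlapped from bin 3 upward, and the middle bins set the classes apart. In bin 3, 64.1% of 64 drug 3' UTR peaks were overlapped (51.1 to 75.7) beside 43.2% of intron peaks, and in bin 4, 76.9% of 52 (63.2 to 87.5) beside 51.4%. In bin 6 it was 95.2% of 63 (86.7 to 99.0) beside 79.9%. In the 2 weakest bins the 3' UTR shares, 2 of 24 (8.33%) and 19 of 62 (30.6%, 19.6 to 43.7), had intervals that included the intron shares of 4.45% and 21.8%. Exon and transcription end peaks also stood above introns, with 74.8% and 61.3% in bin 3 and 75.8% and 68.4% in bin 4, so the gap to introns was not particular to 3' UTRs.

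**Figure D2:**
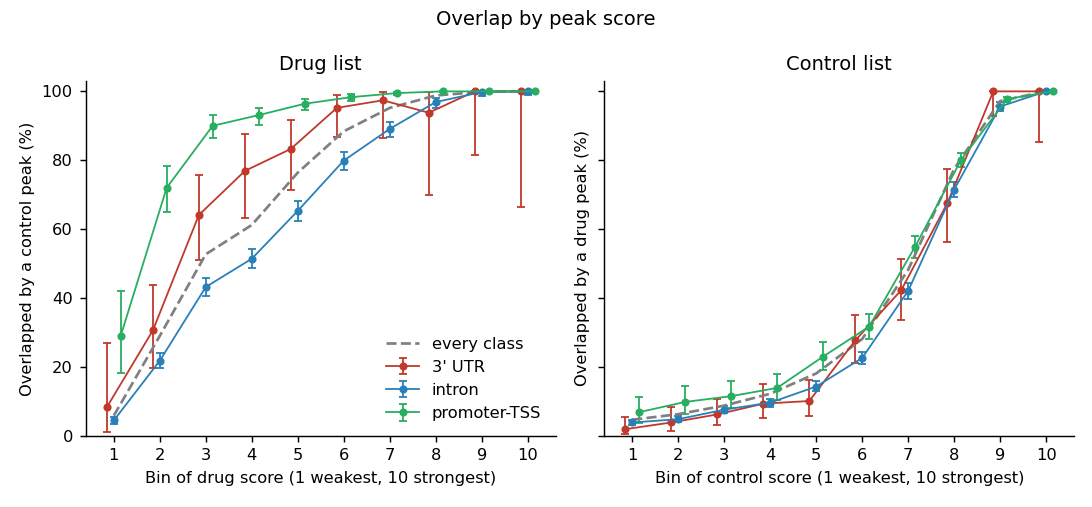
Share of 3' UTR, intron and promoter peaks overlapped by a peak of the other list, in percent with exact 95% intervals, in 10 equal bins of score within the drug list (left) and the control list (right), with the share over every class dashed. In the drug list the 3' UTR line runs above the intron line from bin 1 to bin 7, and in the control list it follows the intron line and reaches 100% in the top 2 bins.

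Most 3' UTR peaks were weak within their list. Their median score was 47 in drug, where the whole list had a median of 59, and 61 in control, where the whole list had 80. Drug scores ran from 14 to 1225 and control scores from 13 to 2890. In the top 10% of the list by rank stood 9 drug 3' UTR peaks (2.21%) and 23 control 3' UTR peaks (1.85%). Overlapped peaks were the stronger ones in both lists. The overlapped drug peaks had a median score of 57 and the others 26, and the overlapped control peaks had 157 and the others 53.

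The peaks were also narrow, and narrower in the drug list. Median width was 231 bp in drug (217 to 239) and 312.5 bp in control (301 to 329). The smallest width, 200 bp, was reached by 35.6% of drug and 14.4% of control 3' UTR peaks, and by 81.7% of the drug peaks that no control peak overlapped. In the drug list a single 3' UTR peak, at FOSB, was 1000 bp or wider, against 30 in control. Among the 268 overlapping pairs of 3' UTR peaks the drug peak was the narrower in 241 (89.9%) and lay wholly inside the control peak in 183 (68.3%), with a median width of 64.9% of the control width. The drug peak was also the narrower in 88.0% of overlapping pairs of every class, so this was no particular feature of 3' UTRs. Both edges fell within 10 bp of each other in 6 pairs, at SEPTIN7, SDE2, SEC22B, PANK3, NUP155 and CCDC127, which is 2.24% of pairs beside 5.01% of pairs of every class and 6.84% of intron pairs. The limits were identical at SDE2, PANK3 and CCDC127.

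The place within the gene was largely set by the annotation that picked the peaks. All 407 drug peaks and 1238 of 1240 control peaks lay in the last exon of the transcript named for them. That exon was read from the same annotation, so this is no separate check. Where gene limits and strand were known, the peak centre was a median of 1312.5 bp from the end of the host gene in drug (390 peaks) and 1414.5 bp in control (1186 peaks). It lay within 2 kb of the end for 65.1% of drug and 63.6% of control peaks, and in the last 10% of the gene's length for 69.7% of drug and 71.5% of control peaks. The host gene was the nearest gene by start site for 42.8% of drug and 41.4% of control 3' UTR peaks. Names given by the nearest start site would thus assign most of them to a gene other than the host. That gene was in some cases one for a small RNA, such as SNORA3B for the drug peak of RPL27A. A start site of any gene lay within 5 kb for 19.2% of drug and 17.3% of control peaks. Other peaks lay close by more often than for the list as a whole, with a next peak within 2 kb for 21.6% of drug 3' UTR peaks, against 15.4% of every class, and for 42.6% of control 3' UTR peaks, against 30.4%. Transcription end peaks had such a neighbour more often, 28.9% in drug and 47.0% in control, and exon peaks in 21.9% of cases in drug and 31.7% in control.

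**Figure D3:**
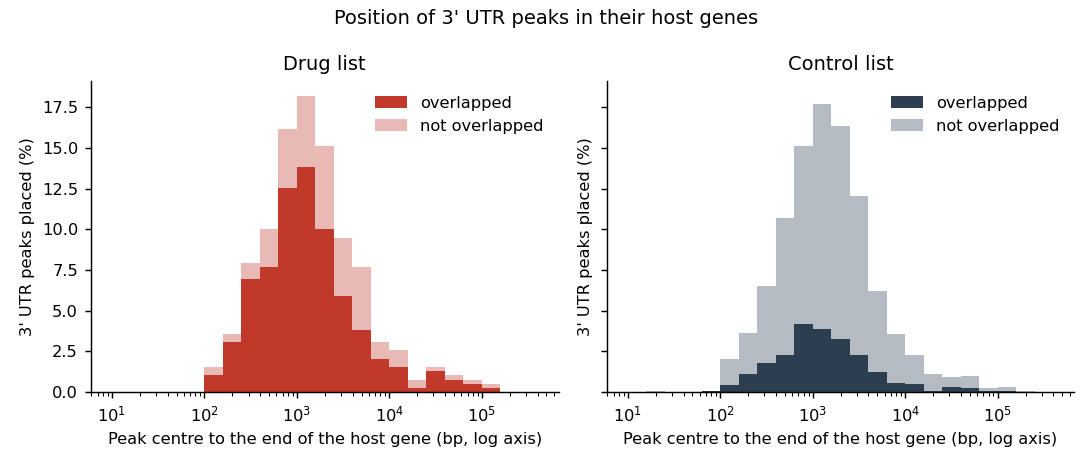
Distance from the peak centre to the end of the host gene, in bp on a log axis, as percent of the 3' UTR peaks placed, for the drug list (left) and the control list (right), with overlapped peaks dark and others pale, stacked. Both lists have their mode near 1 kb, with medians of 1312.5 bp in drug and 1414.5 bp in control, and overlapped peaks are found at all common distances.

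Taken by gene, 384 genes hosted a drug 3' UTR peak and 1074 a control 3' UTR peak. That corresponds to 1.90% of RefSeq protein-coding genes in drug and 5.34% in control. Both lists shared 265 host genes, 69.0% of the drug hosts and 24.7% of the control hosts. The strongest of the shared sites was at SEPTIN7, a septin GTPase of the cytoskeleton used in cytokinesis. Its drug peak, chr7:35905605-35905845, scored 1225 and its control peak, chr7:35905605-35905850, scored 2890. At MTRNR2L1, a nuclear copy of mitochondrial ribosomal RNA sequence, the drug score was 636 and the control score 1839. RPL27A, a protein of the large ribosomal subunit, had 418 in drug and 1679 in control. These 3 genes led the pairs when each pair was placed by the worse of its ranks in the lists, and all 3 have near-identical sequence elsewhere in the genome, so reads there may belong elsewhere and their scores are uncertain.

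The next pairs lay at genes of varied function. AKT1S1, the PRAS40 subunit that restrains mTORC1, had a drug peak at chr19:49869408-49869827 with a score of 352 and a control peak at chr19:49869169-49870100 with 1109. TRAF4, an adaptor of TNF receptor signalling, had 282 in drug and 1067 in control. TAF10, a subunit shared by TFIID and SAGA, had 263 in drug and 1282 in control. All 3 drug peaks lay within the wider control peak. SDE2, which acts in DNA replication and splicing, scored 482 in drug and 898 in control over the same 235 bp. PANK3, a kinase of coenzyme A synthesis, scored 330 in drug and 613 in control over the same 231 bp. These 2 sites were thus called with identical limits, whereas the other leading pairs differed in extent. MAGIX, a PDZ domain protein, had 361 in drug and 919 in control, ST3GAL2, a sialyltransferase, 352 in drug and 868 in control, and PTP4A1, a tyrosine phosphatase, 277 in drug and 846 in control. ZNF91, a zinc finger repressor of retrotransposons, had 317 in drug and 669 in control, with a peak 54120 bp before the gene's end in drug, in the last exon of a shorter transcript. ZFYVE27, the endoplasmic reticulum protein protrudin, had 284 in drug and 548 in control. GDF7, a ligand of the BMP family, had 259 in drug and 943 in control, and SEC14L2, a lipid-binding protein, 193 in drug and 891 in control. Over all 268 pairs the order by score was similar in the lists, with a Spearman rank correlation of 0.67, given as a description because the pairs share both libraries.

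**Figure D4:**
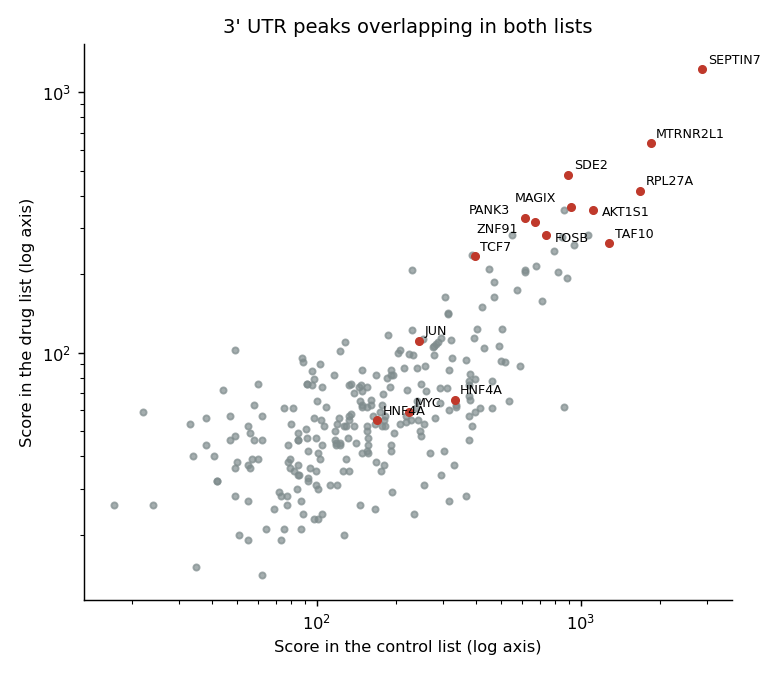
Score in the drug list against score in the control list, both on log axes, for the 268 pairs of overlapping 3' UTR peaks, with selected genes in red. SEPTIN7 stands highest on both axes, at 1225 in drug and 2890 in control, and the scores run together with a Spearman rank correlation of 0.67.

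Peaks found in one list alone were weaker. The strongest drug 3' UTR peak without a control peak was at ZSWIM7, a homologous recombination factor, at chr17:15977620-15977971 with a score of 118, in the top 28.3% of the drug list. It was followed by PCYOX1, prenylcysteine oxidase, with 82, the membrane protein TMEM41A with 79, the endosomal protein LEPROT with 63 and the Integrator subunit INTS6 with 61. TRIOBP, an actin-binding protein, had 59, and the endoplasmic reticulum co-chaperone DNAJC3 and the kinase A anchoring protein AKAP13 had 58 each. Of these 8 peaks, 5 had the smallest width of 200 bp, at TMEM41A, LEPROT, INTS6, TRIOBP and DNAJC3. TRIOBP also had a control 3' UTR peak, with a score of 68 at chr22:37774447-37774653, which did not touch the drug peak at chr22:37773805-37774004.

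The strongest control 3' UTR peaks without a drug peak stood at RTN4RL2, a Nogo receptor homologue, with 292, and at the zinc finger gene ZNF710 with 282. KLF16, a Krüppel-like repressor, had 268, IGF2BP1, an oncofetal RNA-binding protein that protects MYC mRNA, 264, and the tetraspanin CD151 258. RNASET2, a lysosomal ribonuclease, had 254, the mitochondrial adenylate kinase AK4 242 and the glucose transporter SLC2A3 239. These 8 ranked from 9958 at RTN4RL2 to 11684 at SLC2A3 among the 49854 control peaks. Wide peaks were among them, with 1210 bp at ZNF710 and 835 bp at RNASET2. AK4, SLC2A3 and ZNF710 each had a second control 3' UTR peak, with scores of 45, 107 and 68 in that order, and none of these was overlapped by a drug peak either.

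Some 3' UTRs held several peaks. In drug 21 genes had 2 peaks and ATP2A2 had 3, and in control 109 genes had 2, 22 had 3 and 3 had 4. ATP2A2, the calcium pump of the endoplasmic reticulum, had drug scores of 21, 46 and 68 and control scores of 87 and 376. The wider control peak, 1132 bp, covered both stronger drug peaks, so the larger number in drug came with a finer division of the same stretch. HNF4A, the nuclear receptor that directs hepatocyte gene expression, had 2 drug peaks with scores of 66 and 55, and 4 control peaks with scores of 19, 91, 333 and 169, both from the upstream to the downstream end. The drug peaks overlapped the 2 strongest control peaks, at chr20:44431403-44432113 and chr20:44434029-44434517. SLC46A1, the intestinal folate transporter, had control scores of 67, 93, 141 and 44 in order of position, and MGAT1, an enzyme of N-glycan synthesis, 34, 66, 77 and 27. At SLC46A1 and MGAT1 no drug 3' UTR peak was found. Among control genes with 3 peaks, SENP2, a SUMO protease, had drug scores of 110 and 52 and control scores of 219, 128 and 107, and the drug peaks overlapped the 2 weaker control peaks. CBFA2T2, a transcriptional corepressor, and FBXO41, an F-box protein, had 3 control peaks each and no drug 3' UTR peak. ZFAND5, a zinc finger protein that binds ubiquitin, had a drug score of 55, at the strongest of its control peaks, and control scores of 228, 184 and 173. FRAT1, an inhibitor of GSK3, had drug scores of 41 and 25 and control scores of 149, 93 and 69, and ADGRL1, an adhesion receptor, had a drug score of 100 and control scores of 204, 49 and 29.

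Lists of genes with known 3' UTR control or known cell functions, and of blood, fibroblast, endothelial and neuronal markers, were then counted. The 21 lists held 647 genes, of which 28 (4.33%, 2.89 to 6.19) hosted a drug 3' UTR peak and 76 (11.7%, 9.37 to 14.5) a control 3' UTR peak. The share exceeded that of all protein-coding genes in 15 of the lists for drug and in 18 for control. In drug these 15 were all the lists with any host gene, and the other 6 had none. The lists were so small that any drug host put a list above 1.90%, so the drug count could not show whether a list stood apart. In control, a share above 5.34% did not set a list apart from the others.

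Immediate early genes, whose mRNAs carry AU-rich elements that cause rapid decay, had 4 of 45 members in drug (8.89%) and 11 in control (24.4%). Of all protein-coding genes 1.90% were hosts in drug and 5.34% in control, and of all listed genes 4.33% and 11.7%. The 4 drug genes were FOSB and JUN, both AP-1 subunits, MYC, and IER5L, and all 4 drug peaks were overlapped by a control 3' UTR peak. FOSB scored 283 in drug and 737 in control, JUN 111 in drug and 245 and 65 in control, IER5L 102 in drug and 207 in control, and MYC 59 in drug and 224 in control. Control held 7 further members without a drug 3' UTR peak, the AP-1 genes FOSL2 (175), JUND (169) and ATF3 (44 and 43), the stress gene GADD45B (135), IER5 (81), the phosphatase DUSP4 (80 and 55) and KLF5 (72). Translation genes had 2 of 25 members in drug (8%) and 7 in control (28%). EIF5 scored 163 in drug and 307 and 80 in control, and EIF1 scored 60 in drug and 318 in control, both being initiation factors that act in start codon selection. NCL (192), RPLP1 (122), RPS3 (70) and EIF4EBP2 (52) had no drug peak at the place, while at NPM1 a drug intron peak of 34 overlapped a control 3' UTR peak of 156. Ribosomal protein genes and EIF1 and NPM1 have processed pseudogenes, so their reads may be misplaced.

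Factors that act on 3' UTRs were counted as hosts themselves. Among 25 cleavage and polyadenylation factors none had a drug peak, and CPSF7 alone had a control peak, with a score of 25. Of all protein-coding genes, 1.90% hosted a drug and 5.34% a control 3' UTR peak, so these counts were near the background. Among 45 microRNA, decay and 3' UTR binding factors, 4 had a drug peak (8.89%) and 6 a control peak (13.3%). The decay helicase UPF1 scored 94 in drug and 368 in control, and the RNA-binding protein MSI1 50 in drug and 117 in control. The argonaute AGO3 (36) and the decapping factor DCP1A (22) had a drug peak alone. IGF2BP1 (264), the microRNA processing factor DGCR8 (64), AGO2 (53) and TNRC6B (43) had a control peak alone. Of 38 classic microRNA targets MYC was a host in drug (2.63%). In control 5 were hosts (13.2%), namely MYC, IGF2BP1, CDKN1A (83), CDK6 (64) and E2F3 (35). Selenoprotein genes, whose 3' UTRs hold the element that recodes UGA, had none of 25 in drug. In control GPX3 (45) and MSRB1 (38) were hosts, 8% of that list of genes.

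Mitosis genes had none of 42 members in drug and 3 (7.14%) in control, beside 1.90% and 5.34% of all protein-coding genes. Lists of this size can hold no drug member at that background, so no loss is read from it. The control members were the spindle checkpoint gene MAD2L1 at 132, the kinase WEE1 at 102 and the phosphatase CDC25A with peaks of 47 and 40. No drug peak overlapped any of these. KIF11, the mitotic motor the series is built around, had no 3' UTR peak in either list. Ubiquitin enzymes, to which the same limit applies, had none of 36 in drug and 3 (8.33%) in control, BAP1 (80), USP22 (56) and SMURF1 (54).

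Liver genes were represented by secreted and metabolic proteins and by transcription factors. SERPINA1, the antitrypsin gene, had a drug peak of 40 without a control peak. CYP1A1 scored 39 in drug and 60 in control, and SCD, the fatty acid desaturase, scored 36 in drug and 49 and 42 in control. TF (53), FGB (51) and G6PC1 (41) had a control peak alone. Of the transcription factors, HNF4A was described above, THRA had a drug peak of 56 alone, and PPARD (86, 28 and 25), RARA (49) and GATA4 (35) had control peaks alone. Among Hippo pathway genes, the transcription factor TEAD3 had drug peaks of 75 and 57 beneath a single control peak of 377. The secreted target CCN2 scored 61 in drug and had control peaks of 238 and 69. TCF7, a transcription factor of Wnt signalling, scored 235 in drug, in the top 13.6% of that list, and 397 in control, in the top 15.3%.

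Other lists had 1 to 3 drug members each. TRAF2, an adaptor of TNF signalling, scored 102 in drug, in the top 32.4% of that list, and 49 in control, in the top 72.4%. CASP2 scored 76 in drug and 135 in control, AKT2 64 in drug and 292 and 67 in control, the bromodomain protein BRD2 52 in drug and 129 in control, and the chaperone HSPA5 45 in drug and 141 in control. The KDM5B (64), PIK3CB (45), ZNRF3 (31 and 16) and IL6R (62) genes had control peaks alone, and at the stress cytokine gene GDF15 a drug exon peak of 53 overlapped a control 3' UTR peak of 185. MYL9, a myosin light chain, scored 61 in drug and 75 in control. TPM4, a tropomyosin, had drug peaks of 49 and 44, of which the first overlapped a control 3' UTR peak of 85 and the second a transcription end peak. Of the blood and neuronal markers none hosted a 3' UTR peak in either list, and of 10 fibroblast and endothelial markers PECAM1 did, with 47 in drug and 99 in control.

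The widest 3' UTR peak of both lists was at FOSB. It spanned 2097 bp in drug, chr19:45473324-45475420, and 2190 bp in control, chr19:45473268-45475457. A transcription end peak of FOSB followed in both lists, with a score of 236 in drug and 285 in control. Within the gene the lists differed, since control had intron peaks of 139 and 389 that no drug peak overlapped. The same 200 kb window held the largest number of host genes of any such window in both lists, equalled in control by a window on chromosome 12. In it FOSB, RTN2, VASP and OPA3 together hosted 5 drug and 5 control 3' UTR peaks, of which 4 in each list overlapped. RTN2, a reticulon, scored 203 in drug and 822 in control, and VASP, an actin regulator, 93 in drug and 499 in control. OPA3, a mitochondrial protein, scored 123 in drug and 503 in control at the shared site, and had a further peak of 44 in drug and of 33 in control that did not overlap each other. Windows with 3 or more host genes numbered 2 in drug and 19 in control.

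**Figure D5:**
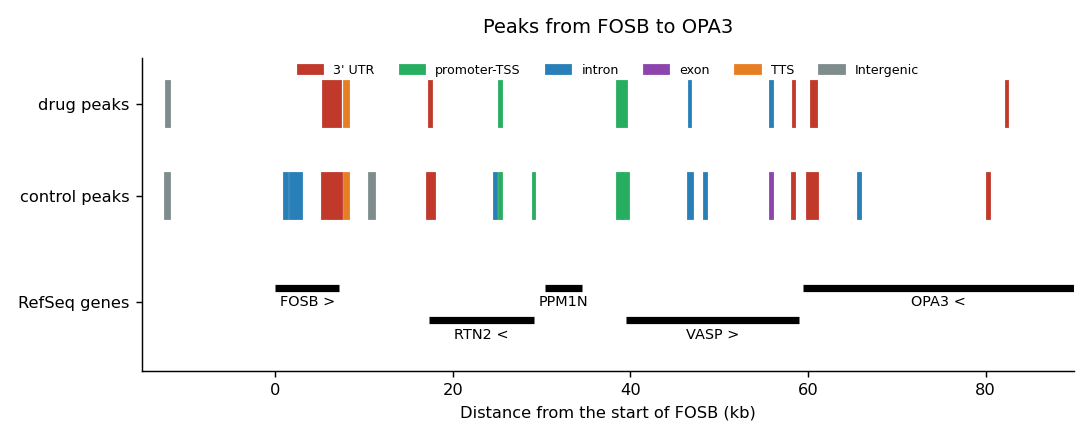
Peaks of the drug list (upper row) and the control list (middle row) by annotation class from FOSB to OPA3, with RefSeq genes below and arrows for strand, against distance from the start of FOSB in kb. The red 3' UTR peaks of FOSB, RTN2 and VASP and the stronger one of OPA3 lie at the same places in both rows, while the intron peaks of FOSB are in the control row alone.

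Finally, 3' UTR peaks were set beside the promoters of their own genes. The host gene had a promoter peak in the same list for 228 of 407 drug 3' UTR peaks (56.0%, 51.0 to 60.9), against 35.2% of all protein-coding genes with a drug promoter peak. For control it was 755 of 1236 peaks with a named host (61.1%, 58.3 to 63.8), against 39.9% of all protein-coding genes. The host shares count peaks, so a gene with several enters more than once, while the shares beside them count genes. A promoter peak at the host did not go with overlap of the 3' UTR peak beyond the intervals. In drug, 74.1% of 3' UTR peaks with a host promoter peak (67.9 to 79.7) and 68.7% of those without one (61.4 to 75.4) were overlapped. In control it was 21.3% with a host promoter peak (18.5 to 24.4) and 24.5% without one (20.7 to 28.6). Counted over 3' UTR peaks, so that a gene with several enters more than once, the control host promoter was overlapped by a drug peak for 132 of 161 control 3' UTR peaks that were overlapped themselves (82.0%, 75.2 to 87.6). The same held for 489 of 594 that were not (82.3%, 79.0 to 85.3). For all 228 drug 3' UTR peaks with a host promoter peak, that promoter was overlapped by a control peak. Of promoter peaks as a whole, counted singly, 97.6% in drug and 74.4% in control were overlapped. The drug host value was near that share, and the control host values of 82.0% and 82.3% were above it. A host counted when any of its promoter peaks was overlapped, so the measures differ.

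By chromosome, the 3' UTR peaks were most numerous on chromosomes 1 and 19, with 47 and 40 in drug and 148 and 103 in control. They made up 2.31% of drug and 3.24% of control peaks on chromosome 19, beside 0.453% of drug and 1.25% of control peaks on chromosome 4. On every chromosome from 1 to 22 except 13, and not on X, the 3' UTR share of peaks was lower in drug than in control. On chromosome 13 it was 1.92% in drug (0.881 to 3.61) and 1.41% in control (0.708 to 2.52), and on X it was 2.17% in drug (1.33 to 3.33) and 2.11% in control (1.44 to 2.98). The overlapped share of control 3' UTR peaks was 38.7% of 31 on X (21.8 to 57.8), 34.9% of 63 on chromosome 16 (23.3 to 48.0), and 0 of 11 on chromosome 18, which allows a share of up to 28.5%.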

How the data were processed

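Per the file headers, each library came as 1 annotated peak table, made by HOMER from MACS2 narrow peaks called in that library alone. The score is the authors' deposited value, used only to describe, rank or bin peaks within a list. The build is hg38 per the submitters' processing notes. The aligner, versions, read depth and use of an IgG library in peak calling are not given in the sources used here, and 1 emptied control line was not analysed here. Samples were grouped by their treatment label. Overlap meant at least 1 bp shared. Host genes were read from the transcript in the annotation, through a RefSeq table of GRCh38.p14, for 405 drug and 1231 control peaks, and from the file's own gene name for 2 and 5. Promoter sequences are RefSeq's. No genome was at hand, so peak sequence and stop codons were not used. Shares carry Clopper-Pearson 95% intervals, differences Newcombe intervals, and medians order-statistic intervals. Scripts ran in Python 3.11.15 with pandas 2.3.3, numpy 2.4.6, scipy 1.17.1 and matplotlib 3.10.9, and were checked on simulated peaks.

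The members and gene lists were chosen with earlier results of these data known. Named genes were the 10 strongest peaks per list, the 10 pairs with the best worse rank, the 8 strongest peaks per list without a partner, up to 10 genes per list with 3 or more peaks, up to 2 genes of each gene list and KIF11. FOSB, named as an immediate early gene, and the list members and other genes beyond these were picked or described after their values were seen. Alternatives were score minimums of 20 and 50, equal list length, other overlap rules, merged neighbours within 500 bp, chromosomes 1 to 22 and X, and a start site within 1 kb. Others were weighting by score bin, the less detailed annotation column alone and curated protein-coding transcripts alone. Some genes that these rules or lists take are not reported here.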

Additional observations from a re-analysis of the deposited data

How the results depend on the processing

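Of 102 alternative values, 74 stayed within 1.5 times the count or within the interval of the value given, 28 moved and 0 changed direction. A change of direction was looked for only in the differences from control intron and promoter peaks. Many of the 74 could not move. The less detailed annotation column alone, or curated transcripts alone, took the same 407 drug and 1240 control 3' UTR peaks. Equal list length left the drug list whole, so its number, share, width and host promoter value were fixed. Peaks scoring 50 or more numbered 194 in drug and 783 in control, were 1.15% of the drug and 2.19% of the control list, and shared 157 host genes; the drug share overlapped was then 89.7%, the difference from control promoter peaks -49.1 points, and median widths 260.5 bp in drug and 376 bp in control. At equal list length 61.7% of drug and 42.6% of the 571 control 3' UTR peaks were overlapped, the control share of its list was 1.95%, its median width 422 bp, the difference from promoters -40.0 points and the control share with a host promoter peak 55.7%. Requiring at least 50% of both peaks to be shared gave 43.2% in drug, 14.1% in control and -43.7 points against promoters. Centres within 200 bp gave 60.7% in drug, 19.9% in control and -48.5 points. A partner in a 3' UTR left 65.8% in drug, and merging neighbours gave 26.3% in control. On chromosomes 1 to 22 and X the control share was 2.66%. Score weighting gave -6.78 points against promoters. Counting any peak within 1 kb of the start site gave host promoters of 66.6% in drug and 75.6% in control. The cause of these shifts was not tested, except that fewer peaks remain under the stricter lists by construction. No paired analysis was possible because each group had 1 library, and for the same reason no library could be left out. Depth, unknown for both libraries, limits every comparison of numbers, widths and scores.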

Other observations

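In 6 pairs both edges of the drug and control 3' UTR peak agreed within 10 bp, and these genes were picked after their values were seen. Beside SEPTIN7, SDE2 and PANK3 they were NUP155, a nuclear pore protein, with 104 in drug and 432 in control, SEC22B, a vesicle fusion protein, with 36 in drug and 79 in control, and CCDC127 with 56 in drug and 38 in control. Their widths were 200 to 246 bp, which is at the narrow end of the control 3' UTR peaks.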
